A study of Mus musculus with 6 samples.

Results

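Col22a1 and 9 other collagen genes were followed in mouse cerebral cortex cells that carried either mutant or wild-type PRPF6. The 10 genes were found by symbol in the deposited gene table, 10 of 10, among 24041 genes in all, and all 10 had enough counts to enter a fit of 14451 genes. They fall into 4 structural classes. Col22a1 is a fibril-associated collagen with interrupted triple helices (a FACIT collagen). Col1a1, Col1a2, Col3a1, Col5a1 and Col5a2 are fibrillar collagens. Col4a1, Col4a2 and Col18a1 belong to basement membranes, and Col6a1 forms beaded filaments. The genes were selected on earlier results of these libraries, that is, on their CPM in the mutant against wild-type contrast, and listed by name with no threshold, so the differences of the 10 genes are given as descriptions and are not tested.

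The 6 libraries came from 2 groups. Cells of the mutant group received GFP and mutant PRPF6 by electroporation, in which electric pulses carry plasmids into cells (3 libraries). Cells of the wild-type group received GFP and wild-type PRPF6 in the same way (3 libraries). In both groups GFP-positive cells were sorted, so every cell population carried a PRPF6 plasmid, and no library without one enters the comparison. PRPF6 is a protein of the tri-snRNP of the spliceosome. The labels give neither the age or strain of the mice, nor the mutation, nor whether libraries came from separate animals, and the spread between libraries may thus be partly technical.

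Collagens are secreted proteins built as a triple helix of 3 chains. Fibrillar types I, III and V make the tensile fibrils of connective tissue, and in the developing brain their main source is the fibroblasts of the meninges. Type IV collagen, a network of Col4a1 and Col4a2 chains, and type XVIII (Col18a1), whose C-terminal fragment is endostatin, lie in the basement membranes of vessels and of the pial surface, where endothelial cells, pericytes and meningeal cells make them. Type VI microfibrils anchor cells in connective tissue. Type XXII collagen is best known from tissue junctions, such as the border of muscle and tendon.

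Total expected counts ran from 45115122 to 57475218 in the mutant libraries and from 47564897 to 60600617 in the wild-type libraries. One count was worth 0.0164 to 0.0228 CPM (CPM, a count relative to library size, scaled with TMM factors), and 3 counts, the level taken as a floor, 0.0492 to 0.0684 CPM. Markers of cortical cells were present in every library. Radial glia markers summed to 3328 to 5647 CPM in mutant and 2295 to 3336 CPM in wild-type libraries, and neuron markers to 2141 to 3904 CPM in mutant and 3807 to 5072 CPM in wild-type libraries. Wild-type replicate 3 stood apart for markers of red blood, meningeal and vessel cells. Its red blood cell markers summed to 16905 CPM, against 79.3 to 1471 CPM in mutant libraries and 991 to 2638 CPM in the other wild-type libraries. Fitted differences of the 10 collagens and medians of the lists are therefore also given without that library.

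Promoter sequences were matched by symbol in RefSeq (GRCm38.p6) for 7 of the 10 genes, in 8 windows. The 250 bases before the start of a pair of fibrillar genes are shown because one, Col3a1, was among the genes that varied most between libraries, while the other, Col5a1, varied least of the 10. Capitals mark every match on either strand to CCAAT, to TATAAA or to GGGCGG, which do not overlap one another here.
Col3a1, chr1:45311288-45311537, plus strand: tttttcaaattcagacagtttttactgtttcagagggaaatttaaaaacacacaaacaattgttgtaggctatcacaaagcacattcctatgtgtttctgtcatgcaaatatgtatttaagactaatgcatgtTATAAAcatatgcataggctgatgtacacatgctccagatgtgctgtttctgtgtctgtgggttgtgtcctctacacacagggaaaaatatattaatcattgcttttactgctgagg
Col5a1, chr2:27886175-27886424, plus strand: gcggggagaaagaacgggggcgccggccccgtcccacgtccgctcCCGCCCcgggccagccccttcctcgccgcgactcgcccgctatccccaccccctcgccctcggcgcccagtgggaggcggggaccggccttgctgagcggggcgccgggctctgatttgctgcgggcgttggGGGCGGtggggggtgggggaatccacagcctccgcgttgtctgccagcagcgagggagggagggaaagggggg
The Col3a1 window held 1 match to TATAAA and had a GC content of 35.2%. The Col5a1 window held 2 matches to GGGCGG and had a GC content of 76.4%. Neither held CCAAT. The Col1a2 window (highest library 281 times the lowest) had a GC content of 62%, with 1 match to CCAAT and 2 to GGGCGG. The Col4a2 window (96.4 times) had 73.6%, with 1 match to CCAAT and 2 to GGGCGG. The Col6a1 window (900 times, with 2 counts in the lowest library) had 56% and none of these motifs. In the annotation GENCODE M21, the Col1a2 and Col6a1 windows overlap untranslated exon sequence of their own genes. The Col4a2 window overlaps untranslated and coding sequence of Col4a1. Of the 8 windows only that of Col3a1 held TATAAA. A link between promoter sequence and spread between libraries was not tested. Over 32851 promoter windows of the same length, 33.8% held CCAAT, 12.4% held TATAAA and 32.7% held GGGCGG.

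Col22a1 (chromosome 15, 71795795 to 72034227, minus strand, GRCm38, GENCODE M21) was higher in all mutant libraries than in any wild-type library. It was at 70.4, 39.9 and 27.1 CPM in mutant replicates 1, 2 and 3, and at 14.6, 6.43 and 10.2 CPM in the wild-type replicates 1, 2 and 3. The groups did not overlap, and the lowest mutant library was 1.86 times the highest wild-type library. The means were 45.8 ± 22.2 CPM with mutant and 10.4 ± 4.08 CPM with wild-type PRPF6 (SD, n = 3 each), a ratio of 4.40. The fitted log2 difference was 2.14 ± 0.45 (SE). These values rest on 1189 to 4091 counts per mutant library and 392 to 679 counts per wild-type library, all of them whole numbers in the deposited table.

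The difference in Col22a1 was 2.13 ± 0.55 (SE) without wild-type replicate 3, the library rich in red blood cell and collagen counts. Across the 6 fits that each left out a library it ran from 1.69, without mutant replicate 1, to 2.46, without wild-type replicate 1. The mutant libraries themselves differed, with replicate 1 at 70.4 CPM against 27.1 CPM in replicate 3. In bulk libraries, more cells that express a gene and more RNA per cell cannot be told apart. An antisense gene, Gm16308, overlaps Col22a1, and because the strand setting is not given in the sources used here, its reads cannot be separated from those of Col22a1.

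In the contrast over all 14451 genes, the quasi-likelihood test of edgeR (p-values adjusted by Benjamini-Hochberg) called 0 genes (0%), Col22a1 and the other collagens included. At an unadjusted p under 0.05 stood 489 genes, or 3.38% (2.18% higher and 1.2% lower with mutant PRPF6). DESeq2 on the same genes called 10 of the 3238 to which it gave an adjusted p (0.309%), and it gave Col22a1 none. On all genes with a count, without the low-count filter, DESeq2 called 12 of 16803 genes (0.0714%), and Col22a1 was one of the 9 that were higher with mutant PRPF6 (0.0536%). The groups did not overlap in 9.14% of the tested genes, with the mutant group above in 4.6% and below in 4.54%. Among the 10 collagens Col22a1 lay above in this way and Col1a2 below. Since this contrast was in view when the genes were listed, nothing is read from these counts.

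**Figure D1:**
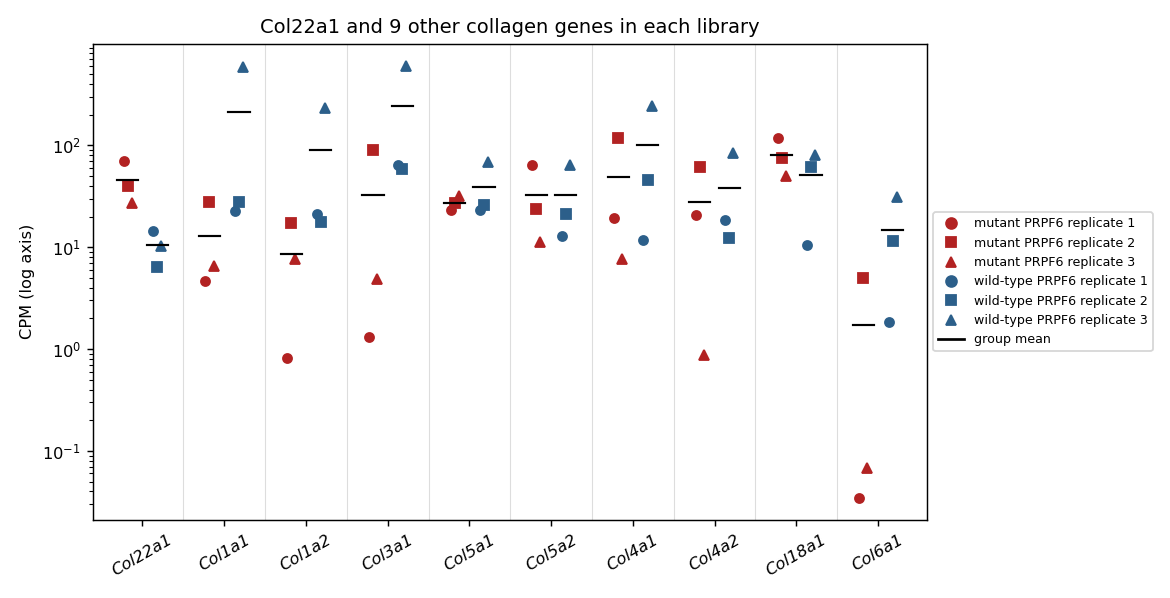
CPM on a log axis for Col22a1 and the 9 other collagens in each library, mutant PRPF6 (red) left of wild-type PRPF6 (blue), with marker shapes for replicates and black lines for group means (n = 3 each). The 3 mutant libraries of Col22a1 sit between 27.1 and 70.4 CPM, above its wild-type libraries at 6.43 to 14.6 CPM, while wild-type replicate 3 is the highest library for 8 of the other 9 genes.

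Type I collagen is a heterotrimer of Col1a1 and Col1a2 chains. Col1a1 (chromosome 11, 94936224 to 94953042, plus strand) was at 4.68, 27.6 and 6.52 CPM in mutant replicates 1, 2 and 3, and at 22.6, 27.5 and 592 CPM in the wild-type replicates 1, 2 and 3. Wild-type replicate 3 was 26.1 times the median of the other 5 libraries, and mutant replicate 2 was level with wild-type replicates 1 and 2, so the groups overlapped. The log2 difference was −4.05 ± 1.51 (SE), and −0.95 ± 0.73 without wild-type replicate 3. Col1a2 (chromosome 6, 4504814 to 4541544, plus strand) was at 0.826, 17.3 and 7.66 CPM in mutant replicates and at 21.1, 17.6 and 232 CPM in wild-type replicates. Its groups did not overlap, but mutant replicate 2 and wild-type replicate 2 were nearly equal. Its log2 difference was −3.40 ± 1.30 (SE), and −1.17 ± 0.97 without wild-type replicate 3.

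Col3a1 (chromosome 1, 45311538 to 45349706, plus strand) encodes the single chain of type III collagen, a known ligand of the receptor Gpr56 in the developing cortex. It was at 1.31, 91.0 and 4.83 CPM in mutant replicates 1, 2 and 3 and at 63.6, 58.7 and 607 CPM in the wild-type replicates 1, 2 and 3. Mutant replicate 2 exceeded both lower wild-type libraries, whereas mutant replicates 1 and 3 were far below them, and the highest library held 464 times the CPM of the lowest. The log2 difference was −2.91 ± 1.68 (SE). Leaving out wild-type replicate 3 gave −0.91 ± 1.47, and leaving out mutant replicate 2 gave −6.32 ± 1.46.

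Type V collagen chains, which regulate fibril diameter, did not follow type I and type III to the same extent. Col5a1 (chromosome 2, 27886425 to 28039514, plus strand) was at 23.1, 26.9 and 32.0 CPM in mutant replicates and at 23.0, 26.1 and 68.1 CPM in the wild-type replicates 1, 2 and 3. Apart from wild-type replicate 3 its libraries lay close together, and the highest was 2.96 times the lowest. Its log2 difference, −0.52 ± 0.42 (SE), turned to 0.16 ± 0.31 without that library. Col5a2 (chromosome 1, 45374321 to 45503282, minus strand) was at 63.8, 23.6 and 11.3 CPM in mutant replicates and at 12.9, 21.2 and 63.9 CPM in wild-type replicates. Both groups spanned nearly the same range, and the log2 difference was 0.010 ± 0.73 (SE). It was 0.95 ± 0.69 with wild-type replicate 3 left out and −0.91 with mutant replicate 1 left out.

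For the 5 fibrillar genes the median log2 difference was −2.91, against −0.0013 over all genes tested, with 1 gene higher and 4 lower. Without wild-type replicate 3 the median was −0.91, with 2 higher and 3 lower. All 5 had their highest value in wild-type replicate 3, as did 14.4% of all genes tested. Summed over the 5 genes, mutant libraries held 93.7, 186 and 62.3 CPM and wild-type libraries 143, 151 and 1563 CPM in replicates 1, 2 and 3. Fibrillar sums of mutant replicate 2 and wild-type replicates 1 and 2 thus lay within a narrow range, with mutant replicates 1 and 3 below it and wild-type replicate 3 above it.

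The type IV genes Col4a1 (chromosome 8, 11198423 to 11312826, minus strand) and Col4a2 (11312805 to 11449287, plus strand) lie head to head, and their annotated starts overlap by 22 bases, where reads cannot be assigned without strand. Col4a1 was at 19.5, 119 and 7.66 CPM in mutant replicates 1, 2 and 3 and at 11.8, 45.9 and 244 CPM in wild-type replicates. Col4a2 was at 20.6, 61.8 and 0.866 CPM in mutant replicates and at 18.6, 12.3 and 83.5 CPM in wild-type replicates. In each group 1 library was far above the others, replicate 2 among mutant and replicate 3 among wild-type libraries, and the groups overlapped. The log2 differences were −1.04 ± 1.27 and −0.46 ± 1.18 (SE). Without wild-type replicate 3 both turned positive, at 0.76 ± 1.13 and 0.85 ± 1.30, and Col4a2 was at 0.11 ± 0.85 without mutant replicate 3.

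Although the Col4a1 and Col4a2 chains form 1 protomer, the ratio of their CPM was not constant between libraries. Col4a1 CPM over Col4a2 CPM was 0.951, 1.93 and 8.84 in mutant replicates 1, 2 and 3 and 0.632, 3.73 and 2.92 in wild-type replicates 1, 2 and 3. The ratio of 8.84 in mutant replicate 3 rested on 336 counts of Col4a1 and 38 of Col4a2. For type I collagen, Col1a1 CPM over Col1a2 CPM was 5.67, 1.60 and 0.851 in mutant replicates and 1.07, 1.57 and 2.54 in wild-type replicates. The mutant libraries with the fewest type I counts gave the highest and the lowest of these ratios.

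Col18a1 (chromosome 10, 77052178 to 77166548, minus strand) was at 118, 74.6 and 50.4 CPM in mutant replicates 1, 2 and 3 and at 10.5, 62.0 and 80.1 CPM in wild-type replicates. The groups overlapped, wild-type replicate 1 was the low library, and the log2 difference was 0.67 ± 0.64 (SE), or 0.19 ± 0.36 without wild-type replicate 1 and 1.16 ± 0.71 without wild-type replicate 3. Slc19a1 overlaps it on the other strand. Over the 3 basement membrane genes the median log2 difference was −0.46, with 1 gene higher and 2 lower. Without wild-type replicate 3 the median was 0.85 and all 3 were higher.

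Col6a1 (chromosome 10, 76708792 to 76726168, minus strand), a chain of type VI collagen, was at 0.0344, 5.02 and 0.0684 CPM in mutant replicates 1, 2 and 3 and at 1.82, 11.5 and 31.0 CPM in wild-type replicates. The mutant replicates 1 and 3 held only 2 and 3 counts, at or below the floor, and mutant replicate 2 held 250, within the range of the wild-type libraries. The log2 difference was −3.11 ± 1.75 (SE), and −1.96 ± 1.92 without wild-type replicate 3. The type VI chains Col6a2 and Col6a3 had the same high library. Col6a2 was at 34.6 CPM and Col6a3 at 18.3 CPM in wild-type replicate 3, against at most 4.65 and 1.29 CPM in mutant and 4.36 and 3.85 CPM in the other wild-type libraries. The other type VI genes, Col6a4, Col6a5 and Col6a6, were not tested and were at 0 counts in every wild-type library, and Col6a4 was at 0.138, 0.562 and 0.342 CPM in mutant replicates 1, 2 and 3.

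**Figure D2:**
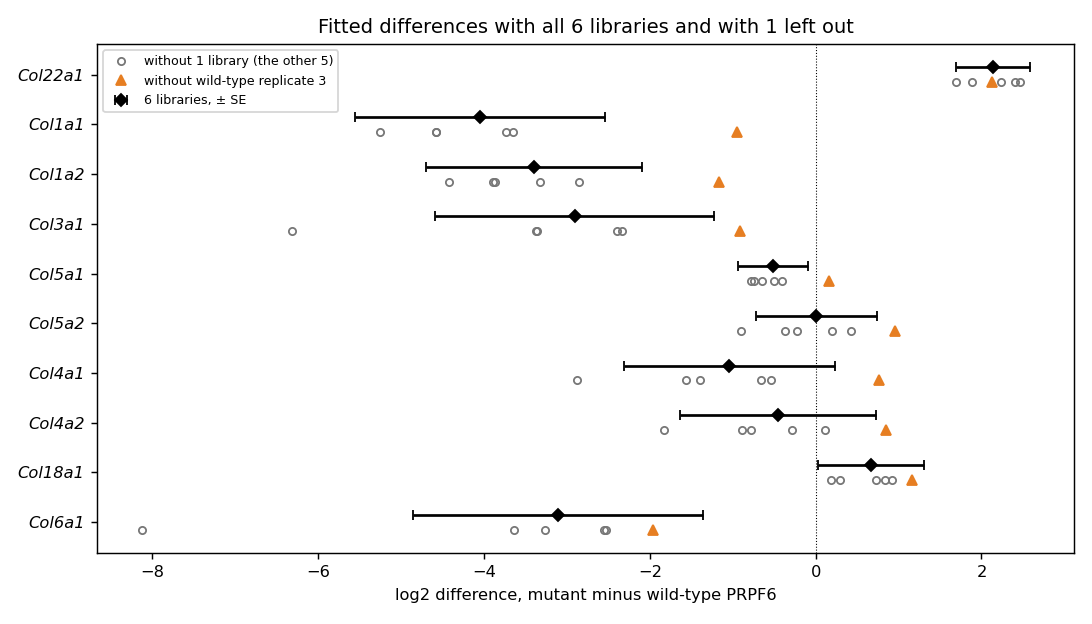
Fitted log2 differences, mutant minus wild-type PRPF6, for the 10 collagens: black diamonds with SE bars use all 6 libraries, grey circles leave out 1 library, and orange triangles leave out wild-type replicate 3. Col22a1 stays between 1.69 and 2.46, while the triangles of Col1a1, Col1a2 and Col3a1 move to −0.95, −1.17 and −0.91 and those of Col4a1, Col4a2 and Col5a1 lie above 0.

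Levels of different genes were compared as CPM per kilobase of annotated exon among all 44 mouse collagen genes in the table. With mutant PRPF6, Col22a1 averaged 4.98 ± 2.42 CPM per kilobase and ranked 5 of 44, after Col2a1 (22.4 ± 5.40), Col18a1 (11.5 ± 4.86), Col9a3 (7.16 ± 3.94) and Col4a1 (6.54 ± 8.20; SD, n = 3 each). Col2a1 and Col18a1 each exceeded Col22a1 in all 3 mutant libraries, whereas the order of Col22a1, Col4a1 and Col9a3 differed between them. With wild-type PRPF6, Col22a1 averaged 1.13 ± 0.44 CPM per kilobase, and its rank was 10, 18 and 23 in replicates 1, 2 and 3, against 4, 7 and 5 in mutant replicates 1, 2 and 3. Col22a1 took 9.59%, 4.90% and 6.60% of all collagen CPM in mutant replicates 1, 2 and 3, and 2.98%, 1.05% and 0.413% in wild-type replicates 1, 2 and 3. In wild-type replicate 3 the 5 fibrillar genes took 63.4% of collagen CPM, which lowers the share of every other collagen there.

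**Figure D3:**
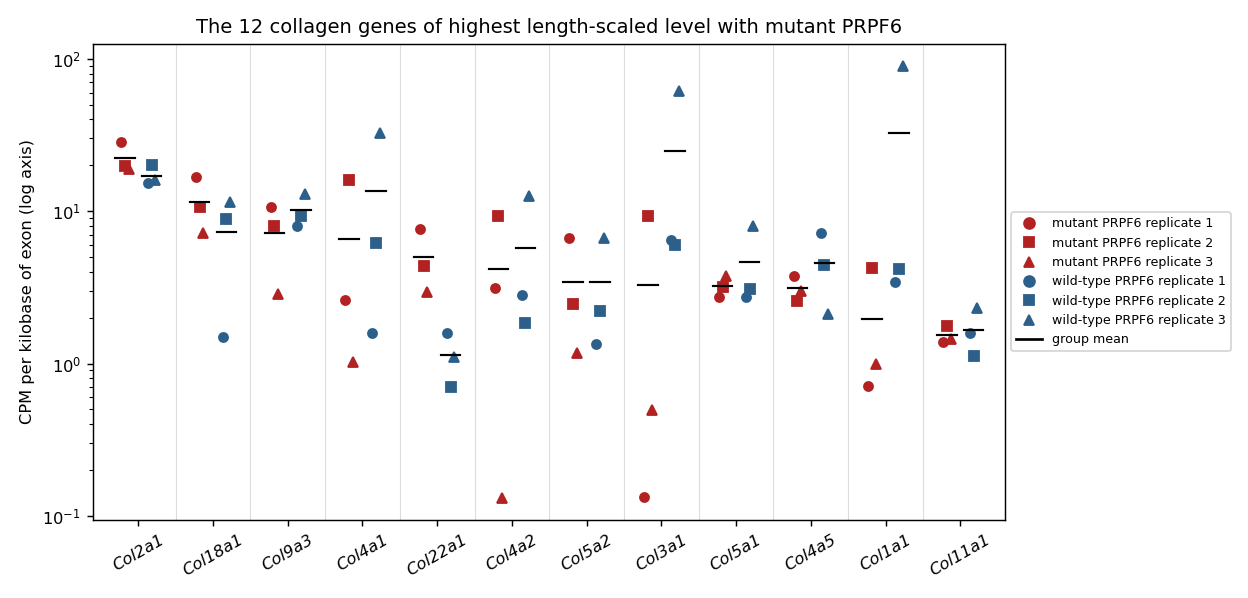
CPM per kilobase of exon on a log axis for the 12 collagens with the highest mutant means, mutant PRPF6 (red) left of wild-type PRPF6 (blue), with black lines for group means (n = 3 each). Col2a1 lies at 18.8 to 28.6 in mutant and 15.2 to 20.2 in wild-type libraries, and Col1a1 and Col3a1 reach 90.2 and 61.9 in wild-type replicate 3.

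The 34 collagen genes outside the list of 10 gave no call in edgeR's test. Of these, 24 were tested, with 8 higher and 16 lower with mutant PRPF6 (median log2 difference −0.52). Without wild-type replicate 3 the counts turned to 16 higher and 9 lower of 25 tested (median 0.34). Col15a1, Col17a1, Col20a1 and Col24a1 were at 0 counts in wild-type replicates 1 and 2. Such genes can enter the fit without wild-type replicate 3 only through mutant libraries. Col2a1, the chain of type II collagen of cartilage, was the most abundant of the 34 genes. It was at 265, 183 and 174 CPM in mutant replicates 1, 2 and 3 and at 141, 187 and 148 CPM in wild-type replicates. The groups overlapped, and wild-type replicate 3 did not stand out (log2 difference 0.39 ± 0.21, SE).

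Among the 8 other FACIT collagens, the class of Col22a1, 6 were tested and none was called, with 2 higher and 4 lower (median −0.69). This turned to 4 higher and 2 lower without wild-type replicate 3 (median 2.01). That median rests partly on wild-type values near the floor. In wild-type replicates 1 and 2, Col9a1 held 1 count each, Col20a1 held 0, and Col9a2 held 37 and 14. Col9a3, a chain of type IX collagen, was at 40.9, 30.9 and 11.03 CPM in mutant replicates 1, 2 and 3 and at 31.0, 35.9 and 50.04 CPM in wild-type replicates. Its expected counts were not whole in 5 of the 6 libraries. Col16a1 was at 1.43, 6.07 and 3.31 CPM with mutant and at 11.4, 5.77 and 17.3 CPM with wild-type PRPF6. Col12a1, of type XII collagen on fibril surfaces, was at 11.2, 13.4 and 0.0228 CPM with mutant and at 0.601, 3.74 and 14.8 CPM with wild-type PRPF6. All 6 tested FACIT genes had their highest value in wild-type replicate 3, whereas Col22a1 there was at 0.376 times the median of the other 5 libraries. The remaining fibrillar genes were split, 2 higher and 3 lower of 5 tested (median −0.12, and 0.19 without wild-type replicate 3), with Col11a1 at 17.7, 22.5 and 18.5 CPM in mutant and 20.1, 14.2 and 29.3 CPM in the wild-type replicates 1, 2 and 3. The X-linked basement membrane gene Col4a5 was at 25.3, 17.4 and 20.0 CPM in mutant and 48.0, 29.6 and 14.3 CPM in wild-type replicates. It was lowest in wild-type replicate 3, unlike Col4a1 and Col4a2. The list of other network and vessel collagens held Col4a5, and also the type VI chains Col6a2 and Col6a3, Col7a1 and Col26a1. This mixed list had 3 higher and 7 lower of 10 tested (median −1.02). Without wild-type replicate 3 it turned to 8 higher and 3 lower of 11 (median 0.36). Col15a1, also on this list, was at 0 counts in wild-type replicates 1 and 2. Of the transmembrane collagens, 1 was higher and 2 lower of 3 tested, with and without wild-type replicate 3 (median −0.10, and −0.031 without it).

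Genes that modify and fold collagen chains had counts in every library. Of 20 tested, 12 were higher and 8 lower (median 0.082, and 0.33 without wild-type replicate 3), with no call in edgeR. P4hb, a subunit of prolyl 4-hydroxylase and a disulfide isomerase, was at 588, 457 and 566 CPM with mutant and at 500.1, 499 and 498 CPM with wild-type PRPF6, and its log2 difference was 0.11 ± 0.14 (SE). Serpinh1, the collagen chaperone HSP47, was at 505, 241 and 296 CPM in mutant replicates 1, 2 and 3 and at 192, 243 and 474 CPM in wild-type replicates. Its highest libraries were mutant replicate 1 and wild-type replicate 3. Ppib, a prolyl isomerase of the endoplasmic reticulum, had a log2 difference of 0.059 ± 0.15 (SE).

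Genes of collagen processing and cross-linking included 15 tested members, 6 higher and 9 lower (median −0.18), with no call in edgeR. Leaving out wild-type replicate 3 gave 8 higher and 7 lower (median 0.066). Sparc, a collagen-binding matrix protein, was at 511, 223 and 186 CPM in mutant replicates 1, 2 and 3 and at 134, 162 and 404 CPM in wild-type replicates. Bmp1, a procollagen C-proteinase, had overlapping groups, at 77.6 to 128 CPM with mutant and 63.6 to 120 CPM with wild-type PRPF6. Decorin (Dcn), a small proteoglycan of fibrils, was at 3.29, 13.6 and 1.23 CPM in mutant and at 8.97, 17.2 and 85.3 CPM in wild-type replicates. Like Col1a1, it was highest in wild-type replicate 3.

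The laminins, nidogens and other basement membrane partners of type IV collagen gave no call in edgeR among 17 tested, with 7 higher and 10 lower (median −0.18). Without wild-type replicate 3, 11 were higher and 6 lower (median 0.61). Agrn, a heparan sulfate proteoglycan, was at 530, 349 and 226 CPM in mutant replicates 1, 2 and 3 and at 220, 158 and 216 CPM in wild-type replicates, without overlap (log2 difference 0.89 ± 0.30, SE). Pxdn, the peroxidasin that cross-links type IV collagen, was at 97.3, 137 and 116 CPM with mutant and at 70.2, 97.8 and 98.1 CPM with wild-type PRPF6, where the groups overlapped. Fbln1, a fibulin, was at 58.1 to 89.9 CPM with mutant and 67.2 to 96.6 CPM with wild-type PRPF6.

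Collagen receptors gave no call in edgeR among 10 tested genes, with 5 higher and 5 lower (median −0.20), or 6 higher and 5 lower of 11 without wild-type replicate 3 (median 0.35). Gpr56 (Adgrg1), which binds type III collagen, was at 737, 585 and 598 CPM in mutant replicates 1, 2 and 3 and at 415, 508 and 384 CPM in wild-type replicates, without overlap (log2 difference 0.55 ± 0.16, SE). It was the 1 tested receptor gene whose mutant libraries lay above without overlap, and 2 others lay below. Over all genes tested, 4.6% lay above and 4.54% below in this way. Ddr1, a receptor tyrosine kinase for collagens, was at 814, 469 and 557 CPM with mutant and at 575, 341 and 268 CPM with wild-type PRPF6, with overlap. Itgb1, the beta chain of the collagen-binding integrins, had a log2 difference of 0.069 ± 0.15 (SE).

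**Figure D4:**
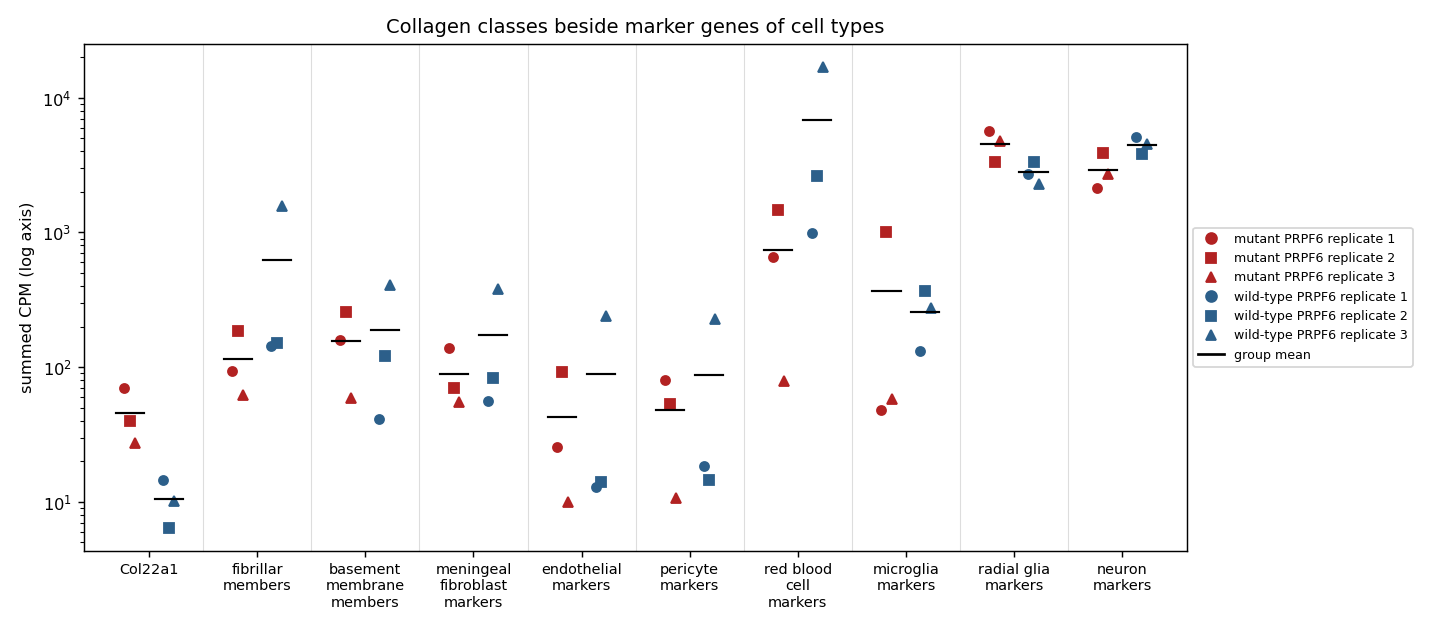
Summed CPM on a log axis for Col22a1, the fibrillar and basement membrane genes and the marker genes of 7 cell types, mutant PRPF6 (red) left of wild-type PRPF6 (blue), with black lines for group means (n = 3 each). Wild-type replicate 3 is the highest library for the fibrillar and basement membrane genes and for meningeal, endothelial, pericyte and red blood cell markers, while Col22a1 is highest in mutant replicate 1.

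Markers of cells that make fibrillar and basement membrane collagens shared with them the high values of wild-type replicate 3, but not the whole order of the other libraries. Among these, meningeal markers were highest in mutant replicate 1, and fibrillar sums in mutant replicate 2. Meningeal fibroblast markers summed to 139, 70.3 and 55.3 CPM in mutant replicates 1, 2 and 3 and to 55.6, 82.5 and 383 CPM in the wild-type replicates 1, 2 and 3. Of 13 tested, 10 were highest in wild-type replicate 3, 11 were lower with mutant PRPF6 and 2 higher (median −1.60). Without that library 6 were lower and 7 higher (median 0.20). Igf2, a growth factor gene of meningeal and other mesenchymal cells, was at 7.93, 19.0 and 1.34 CPM with mutant and at 8.44, 19.8 and 179 CPM with wild-type PRPF6. Crabp2, a retinoic acid binding protein, was at 19.7, 12.4 and 22.2 CPM with mutant and at 10.6, 20.9 and 46.7 CPM with wild-type PRPF6. Foxd1, a forkhead transcription factor, was at 54.8, 6.25 and 11.99 CPM with mutant and at 12.5, 12.01 and 16.8 CPM with wild-type PRPF6, highest in mutant replicate 1 (log2 difference 0.82 ± 0.72, SE). These 3 were the most abundant tested markers of the list, and Igf2 and Crabp2 were highest in wild-type replicate 3. At 0 counts were Foxc2 and Mgp in mutant replicate 1, Mgp in mutant replicate 2, and Twist1, Mgp and Alx4 both in mutant replicate 3 and in wild-type replicate 2. The part of meningeal cells in the fibrillar values was not tested.

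Endothelial markers were highest in wild-type replicate 3 and, among mutant libraries, in replicate 2, as were Col4a1 and Col4a2. They summed to 25.4, 91.8 and 10.01 CPM in mutant replicates 1, 2 and 3 and to 12.8, 14.1 and 240 CPM in wild-type replicates. Of 17 markers 10 were tested, with 1 higher and 9 lower (median −1.34), and without wild-type replicate 3 there were 8 higher and 2 lower (median 1.61). For that fit the low-count filter was run again. Genes near 0 counts in wild-type replicates 1 and 2 could pass it only through mutant libraries. The direction without wild-type replicate 3 is thus partly set by the filter, and nothing is read from it. Kdr, a VEGF receptor, was at 4.04, 15.5 and 0.388 CPM with mutant and at 0.172, 4.02 and 40.0 CPM with wild-type PRPF6. Ramp2, a receptor-activity-modifying protein, was at 6.25, 6.53 and 3.76 CPM with mutant and at 0.472, 3.51 and 24.2 CPM with wild-type PRPF6. Egfl7, a secreted factor of vessels, was at 8.83, 12.1 and 4.88 CPM with mutant and at 8.82, 3.28 and 23.5 CPM with wild-type PRPF6. These 3 endothelial genes were each highest in wild-type replicate 3. At 0 counts were 3, 0 and 4 of the 17 in mutant replicates 1, 2 and 3 and 3, 5 and 0 in wild-type replicates 1, 2 and 3, among them Cdh5, the vascular cadherin, in wild-type replicate 1 and Flt1, another VEGF receptor, in mutant replicate 3. Pericyte and smooth muscle markers summed to 79.8, 53.0 and 10.7 CPM with mutant and to 18.4, 14.4 and 228 CPM with wild-type PRPF6. Of 11, 6 were tested, with 2 higher and 4 lower (median −1.72), or 5 higher and 1 lower without wild-type replicate 3 (median 2.21). The limit on the endothelial fit without that library holds here too. The part of vessel cells in the type IV values was not tested.

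Col22a1 shared part of its order of libraries with meningeal and pericyte markers. Within the mutant group, the meningeal and pericyte sums, like Col22a1, were highest in replicate 1 and lowest in replicate 3. Col2a1, Col18a1, Col5a2, Agrn and Sparc had that order too, so it is not particular to these markers. Of the most abundant meningeal markers, Foxd1 was highest in mutant replicate 1, Igf2 in mutant replicate 2 and Crabp2 in mutant replicate 3 within that group. In wild-type replicate 3 the meningeal, endothelial, pericyte and red blood cell sums were at their maximum. Col22a1 was at 10.2 CPM in that library, between its values in wild-type replicates 1 and 2. In mutant replicate 3 the meningeal, endothelial, pericyte and red blood cell sums were at their minimum, of 55.3, 10.01, 10.7 and 79.3 CPM. The meningeal sum of wild-type replicate 1 was nearly the same, at 55.6 CPM. Col22a1 was at 27.1 CPM in mutant replicate 3, above every wild-type library. All 16 tested radial glia markers had higher fitted values with mutant than with wild-type PRPF6 (median 0.64). Of all genes tested, 49.8% had higher and 50.2% lower fitted values. No radial glia marker was called by edgeR. DESeq2 called 1, Sox9, a transcription factor of neural progenitors (log2 difference 0.89, DESeq2 adjusted p = 0.0198). Over all genes given an adjusted p, DESeq2 called 10 of 3238 (0.309%), and it gave none to Tnc of this list. Sox9 was named after its value was seen, so nothing is read from this count. Radial glia sums were 5647, 3328 and 4738 CPM in mutant replicates 1, 2 and 3 and 2734, 3336 and 2295 CPM in wild-type replicates. Mutant replicate 2 and wild-type replicate 2 were nearly level. Neuron markers had lower fitted values in 14 of 15 (median −0.82), or 13 of 15 without wild-type replicate 3 (median −0.58). The radial glia median was 0.54 without that library. Of 12 tested red blood cell markers, 11 were lower with mutant PRPF6, with and without wild-type replicate 3 (median −3.18 with it and −1.21 without it). The part of any of these cell types in the Col22a1 values was not tested.

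The genes with a pattern most like that of Col22a1 were sought among tested genes whose mean log2 CPM reached 1. Likeness was the root-mean-square difference of centred log2 CPM over the 6 libraries, where a smaller value is a closer match. This search uses the same libraries and so tends to return genes that are higher with mutant PRPF6. The nearest were Tap2 (0.32), a peptide transporter of antigen presentation, and Tnc (0.37), the matrix glycoprotein tenascin C and a radial glia marker. Sfrp4 (0.49), a secreted Wnt modulator, Ppfia3 (0.51), a liprin of the synapse, and Etv4 (0.55), an ETS transcription factor, came next. Tnc was at 81.6, 49.4 and 36.5 CPM in mutant replicates 1, 2 and 3 and at 19.8, 9.64 and 25.7 CPM in wild-type replicates. As for Col22a1, mutant replicate 1 was the highest library, wild-type replicate 2 was the lowest, and the groups did not overlap.

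The genes most like Col1a1 were of another kind, and their distances were larger. They were Alas2 (0.82), the first enzyme of haem synthesis in red blood cells, Dcn (0.85), Postn (0.90), the matrix protein periostin, Hba-a1 (0.93), an alpha-globin gene, and Igf2 (0.98). Postn was at 0.310, 5.42 and 0.205 CPM in mutant replicates 1, 2 and 3 and at 3.97, 5.71 and 57.9 CPM in wild-type replicates. Among the 10 collagens themselves, Col1a1 lay nearest to Col1a2 (0.88). Of the fibrillar genes, Col22a1 lay 3.11 from Col1a1, 3.33 from Col1a2, 3.80 from Col3a1, 1.47 from Col5a1 and 1.38 from Col5a2. It lay 1.31 from Col18a1, 2.38 from Col4a1, 2.49 from Col4a2 and 4.21 from Col6a1. With 6 libraries, of which wild-type replicate 3 carries most of the spread of Col1a1, these distances describe the libraries only.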

How the data were processed

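Expected counts per gene were deposited for 6 libraries, estimated with RSEM on mm10 per the submitters' processing notes. No RSEM version, aligner, annotation or strand setting was found in the labels, headers or notes. The labels' protocols give 300 pg of RNA as input to cDNA synthesis, and 150-base paired ends. Reads carry no molecular identifiers, so errors cover the spread between libraries, not molecules.

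Expected counts were rounded to whole numbers, filtered with filterByExpr and scaled with TMM. The fit was edgeR 4.0.16 (robust quasi-likelihood F-test, group as the only term, R 4.3.3), with Benjamini-Hochberg adjustment at 0.05 over 14451 genes. The steps were run on simulated data with planted changes. That check set a limit only on the median fitted change, not on the number of genes called. Standard errors are those of the fitted log2 difference. Log2 CPM used a prior count of 2. Exon lengths and coordinates came from GENCODE M21 on GRCm38, the same assembly as mm10. Of the list entries, 5 were found under older symbols, and Ahsp was not matched.

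The 10 members and all gene lists were chosen with earlier results of these data known. Genes to name were taken from the 10 members, the 5 genes most like Col22a1 and Col1a1 each, and the 3 most abundant tested genes of other lists. Further collagens with a mean of at least 1 CPM could also be named. Sox9, Col6a4, Col15a1, Col17a1, Col20a1, Col24a1 and the markers at 0 counts were named after their values were seen. Alternatives were RLE and upper-quartile factors, no filter, a minimum of 1 CPM in at least 3 libraries, limma-voom (limma 3.58.1), DESeq2 1.42.0, no robust estimation, a replicate block, leaving out each library, mean log2 CPM, and an adjusted p under 0.1. DESeq2 without the filter was added after the data were seen. With a library left out, the low-count filter was run again. Genes near 0 counts in either group could then enter only through the other.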

Additional observations from a re-analysis of the deposited data

How the results depend on the processing

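The fitted log2 difference of Col22a1 kept its sign in all 16 alternatives, between 1.69 and 2.46. Because its groups did not overlap, leaving out a library could hardly turn that sign. The gene was also listed with this contrast known, so the kept sign is no independent check. The count of genes called was 0 in every edgeR setting run and in limma-voom, 10 with DESeq2 and 12 with DESeq2 without the low-count filter, against 0 in the fit reported. The cause of that gap was not tested. The fibrillar median kept its sign in all 16 alternatives, and with 1 library left out it ran from −4.42, without mutant replicate 2, to −0.91, without wild-type replicate 3. The basement membrane median (−0.46) turned positive when wild-type replicate 3 (0.85) or mutant replicate 3 (0.11) was left out, and its lowest value was −1.83. Replicate numbers are shared by the groups, but the deviations of same-numbered libraries correlated at 0.054, 0.061 and −0.26 across genes, and not every library correlated best with its own number. With the replicate number as a block the count of calls was 0, the unadjusted count 307 against 489, and the Col22a1 difference 2.11. Among single genes, Col5a2 changed sign in 5 alternatives, Col4a2 in 2, and Col5a1 and Col4a1 in 1 each. At most 3 counts limit Col6a1 in mutant replicates 1 and 3, where leaving out mutant replicate 2 gave −8.13.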

Other observations

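Microglia markers had another order of libraries than the meningeal and vessel markers. They summed to 47.9, 1003 and 58.2 CPM in mutant replicates 1, 2 and 3 and to 133, 367 and 276 CPM in wild-type replicates 1, 2 and 3. All 10 were highest in mutant replicate 2, the mutant library with the most Col3a1, Col4a1 and Col4a2. Csf1r, the receptor that sustains microglia, was at 7.61, 197 and 6.34 CPM with mutant and at 24.4, 67.1 and 40.9 CPM with wild-type PRPF6. The groups overlapped.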
